A study of Mus musculus with 3 samples.

Results

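10 genes whose products the choroid plexus secretes or uses for transport were followed through single-cell libraries of mouse brain tumor tissue. They were the secreted proteins *Ttr*, *Enpp2*, *Kl*, *Sostdc1*, *Igfbp2* and *Clu* and the transporters and channels *Folr1*, *Clic6*, *Kcnj13* and *Aqp1*, each found by its symbol among the 31053 genes of the count matrices. The set was chosen by the genes' high UMI counts in choroid plexus cells of these data, so that contrast is described here and not tested. A choroid plexus cell was a cell in which *Ttr* made up 2% or more of the UMIs (unique molecular identifiers, 1 per captured RNA molecule), and 483 of 5528 cells met this. Because *Ttr* also chose the cells, its own level among them is partly set by the choice.

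The choroid plexus is a fold of secretory epithelium in the brain ventricles that makes cerebrospinal fluid and separates it from the blood. Its epithelial cells secrete carrier proteins and growth factor modulators into the fluid, and move ions, water and vitamins across their apical and basal membranes. The most abundant of their messages is that of transthyretin (*Ttr*), a carrier of thyroid hormone and of retinol-binding protein.

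The cells came from female C57BL/6 mice of 6 to 8 weeks that received brain tumor-initiating cells (BTICs), a single line derived from NPcis mice (*Nf1*+/-; *Trp53*+/-) and made to express luciferase and GFP, in the right striatum. From day 7, mice were injected intraperitoneally each day with niacin at 100 mg/kg or with saline vehicle, and at week 4 a 2 mm section around the injection site was taken. Each library was a pool, of 4 brain tissues by the labels' pooling step and of 5 mice by their count of mice, cleared of debris on Percoll and sorted for live cells before 10x Genomics 3′ sequencing. There were 1 vehicle control library (replicate 2) and 2 niacin libraries (replicates 1 and 2), all from tumor-bearing mice, and no library of a brain without a tumor was analysed here. The ventricle lining was not a target of the dissection, so the amount of choroid plexus in a pool was not set by the design.

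The 3 libraries held between 2145 and 2532 barcodes and from 8301228 to 10359526 UMIs. Their sequencing pool was shared, and 2300 of the 6947 barcodes (33.1%) occurred in more than 1 library. Among choroid plexus cells, 81 of 110 barcodes of the vehicle library, 111 of 163 of niacin replicate 1 and 109 of 210 of niacin replicate 2 were shared. A barcode that had more UMIs in another library is called a shallower copy here. There were 71, 36 and 82 shallower copies among the choroid plexus cells of these libraries in that order, and 188 of the 189 were choroid plexus cells in their deeper library as well. The median copy held 5.84% of the UMIs of its deeper counterpart. In the vehicle library the copies had a median of 692 UMIs and the other 39 cells one of 5624 UMIs. How the copies arose was not tested. Which of the 10 genes were called is given with and without them for choroid plexus cells, for all other cells and for the difference between these.

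The label choroid plexus was set beside markers. All 14 genes of the choroid plexus list had UMIs in these cells. That is no independent check, since 7 of the 14 are among the 10 and *Ttr* chose the cells. Having UMIs did not set this list apart either. All genes of the microglia, granulocyte, erythrocyte and plasma cell lists had UMIs too. Their summed levels were 182 to 409, 78.5 to 425, 47.1 to 589 and 12.6 to 16.3 CPM. Of 5 ependymal markers 3 had UMIs, with a summed level of 214 to 285 CPM over the libraries, and *Tmem212* and *Ccdc153* had none. Of 5 endothelial markers 3 had UMIs (2.17 to 31.4 CPM), and *Cldn5* and *Cdh5* had none. Of 5 fibroblast or pericyte markers 1 had UMIs (0 to 1.08 CPM), and *Col1a1*, *Dcn*, *Lum* and *Col3a1* had none. Clustering placed 478 of the 483 cells in the 2 choroid plexus-like clusters, 315 in a deep cluster with a median of 5734 UMIs and 163 in a shallow one with a median of 706 UMIs. The cut on *Ttr* was not used in it, but *Ttr* was among the clustered counts. The list that named the clusters held *Ttr* and others of the 10 genes. This overlap is therefore no independent check of the label. Of the 163 shallow cells, 146 were shallower copies. Around the cut, 2 cells had *Ttr* at 1% to 2% of their UMIs and 6 had it at 2% to 4%.

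Sequence upstream of the start was at hand for 4 of the 10 genes (RefSeq, GRCm38.p6). The 250 bases before the start are shown for *Kcnj13* and *Aqp1*, the 2 genes with the most UMIs outside choroid plexus cells for those within when no copy was left out, and for *Kl*, whose UMIs did not, so that the 3 can be compared. Capitals mark a forkhead core (TGTTTA) or an Rfx half-site (GTTGCC) on either strand. A homeobox core (TAATCC), the kind that Otx2 recognizes, was searched as well.
*Kcnj13*, chr1:87394730-87394979, minus strand: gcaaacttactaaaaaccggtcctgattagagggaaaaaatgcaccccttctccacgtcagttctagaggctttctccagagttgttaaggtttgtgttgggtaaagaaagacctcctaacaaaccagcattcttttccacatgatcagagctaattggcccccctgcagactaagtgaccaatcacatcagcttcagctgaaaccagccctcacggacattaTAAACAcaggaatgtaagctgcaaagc
*Aqp1*, chr6:55336049-55336298, plus strand: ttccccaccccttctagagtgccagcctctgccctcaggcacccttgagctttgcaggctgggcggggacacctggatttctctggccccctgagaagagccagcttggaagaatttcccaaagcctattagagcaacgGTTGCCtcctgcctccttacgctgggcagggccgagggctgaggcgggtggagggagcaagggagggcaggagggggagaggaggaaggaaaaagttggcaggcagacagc
*Kl*, chr5:150952357-150952606, plus strand: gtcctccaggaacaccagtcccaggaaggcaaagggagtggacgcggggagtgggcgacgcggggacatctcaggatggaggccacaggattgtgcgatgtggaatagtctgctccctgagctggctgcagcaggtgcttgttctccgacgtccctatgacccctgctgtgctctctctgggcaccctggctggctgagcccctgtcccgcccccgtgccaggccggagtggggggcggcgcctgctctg
The window of *Kcnj13* held 1 forkhead core, read on the opposite strand as TAAACA, and that of *Aqp1* held 1 Rfx half-site. A forkhead core was also found for *Igfbp2*, whose sequence is not shown. The window of *Kl* held none of the 3 motifs. Over 32851 mouse promoter windows of this length, 12.03% held the forkhead core, 10.4% the Rfx half-site and 6.25% the homeobox core, which none of the 5 windows of the 10 genes had. These are matches of letters only.

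In choroid plexus cells the 10 genes spanned more than 3 orders of magnitude. Levels are CPM, the UMIs of a gene scaled to 1000000 UMIs summed over the cells of a library. One UMI stands for 1 captured 3′ end whatever the length of the transcript, so levels of different genes can be set side by side. Together the 10 genes made up 18.8% of the UMIs of vehicle choroid plexus cells, 29.0% in niacin replicate 1 and 23.7% in niacin replicate 2, and without *Ttr* the other 9 made up 3.21%, 2.65% and 2.13%. In all other cells the 10 genes together were at 0.00596%, 0.0329% and 0.0233% of UMIs.

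**Figure D1:**
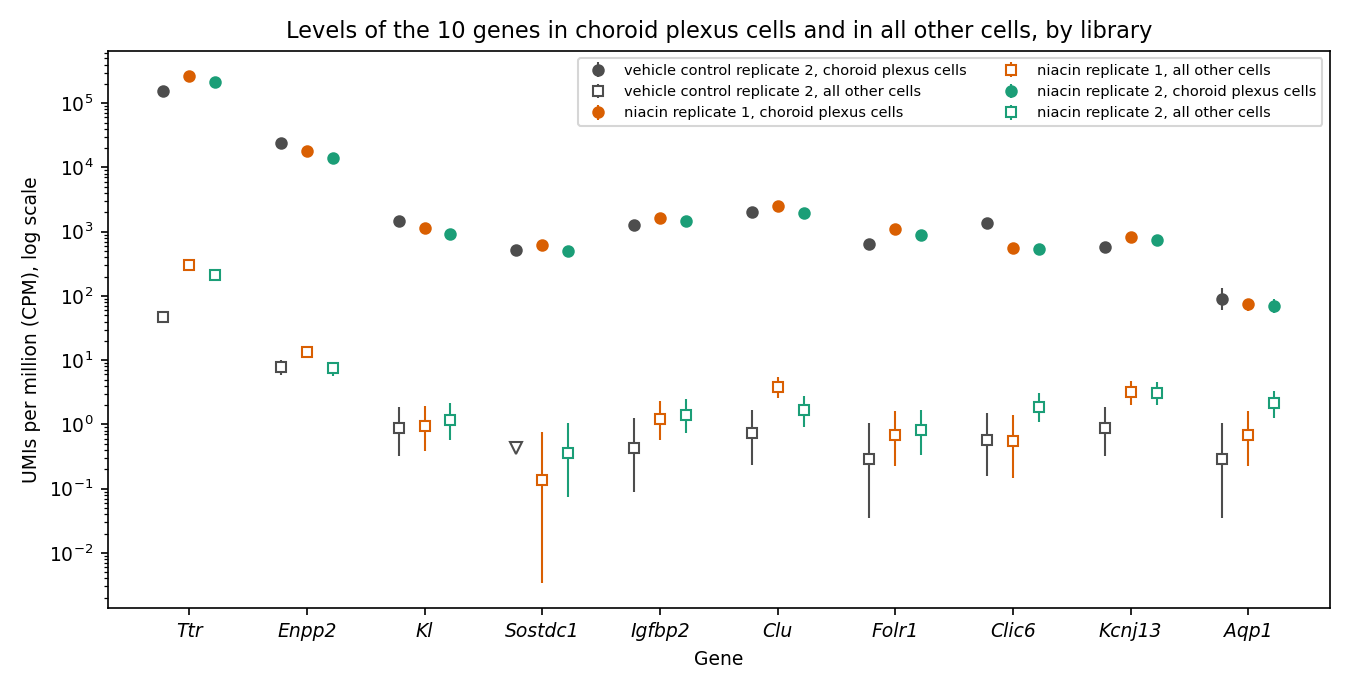
Level of each gene in CPM (log scale) in choroid plexus cells (filled circles) and in all other cells (open squares) of the 3 libraries, with exact Poisson 95% intervals, and an open triangle at the level of 3 UMIs where no UMI was found. Every filled circle lies above every open square of the same gene, and *Aqp1*, at 70.5 to 91.1 CPM, is the lowest of the 10 genes in choroid plexus cells.

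*Ttr* (ENSMUSG00000061808) was the most abundant transcript of choroid plexus cells in all 3 libraries. It stood at 156086 CPM in the vehicle library, 263958 CPM in niacin replicate 1 and 215364 CPM in niacin replicate 2, or 21.2% ± 5.4 of all UMIs (SD, n = 3 libraries). In the 39 vehicle cells that were not shallower copies its share of a cell's UMIs ran from 3.84% to 27.5%, with a median of 13.1%. The medians of the corresponding niacin cells were 27.8% and 23.4%, and the ranges of the libraries overlapped. The 71 vehicle copies, with a median of 30.5%, lay nearer to the niacin cells than to the other vehicle cells.

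**Figure D2:**
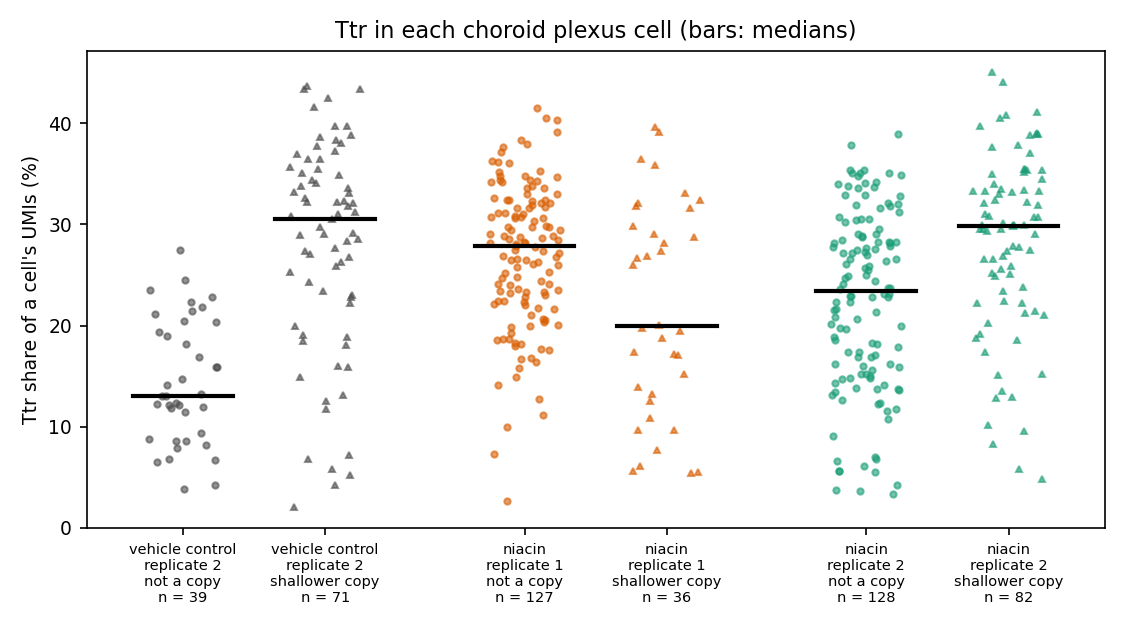
Share of *Ttr* in the UMIs of each choroid plexus cell (%), by library, for cells that were not shallower copies (circles) and for shallower copies (triangles), with bars at the medians. The vehicle cells that were not copies have a median of 13.1%, and the vehicle copies one of 30.5%.

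*Enpp2* (ENSMUSG00000022425, chr15:54838901-54952892, minus strand) encodes autotaxin, the secreted enzyme that makes lysophosphatidic acid. It was the third most abundant transcript of choroid plexus cells in each library, at 24098 CPM in the vehicle library, 18054 CPM in niacin replicate 1 and 14264 CPM in niacin replicate 2. The vehicle library was the highest. *Clu* (ENSMUSG00000022037, chr14:65968483-65981547, plus strand), which encodes the extracellular chaperone clusterin, followed at 2033, 2499 and 1940 CPM in the same order. The 3 libraries differed little, and the vehicle level lay between those of the niacin libraries.

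*Igfbp2* (ENSMUSG00000039323, chr1:72824503-72852474, plus strand), a secreted binding protein of insulin-like growth factors, was at 1288 CPM in the vehicle library, 1655 CPM in niacin replicate 1 and 1457 CPM in niacin replicate 2. *Kl* (ENSMUSG00000058488, chr5:150952607-150993817, plus strand), which encodes klotho, a co-receptor of fibroblast growth factor 23 that is also shed, was at 1464, 1145 and 909 CPM. *Sostdc1* (ENSMUSG00000036169, chr12:36314139-36318452, plus strand), a secreted antagonist of BMP and Wnt signaling, was at 528, 622 and 505 CPM. Both niacin libraries lay above the vehicle library for *Igfbp2* and below it for *Kl*, while for *Sostdc1* they lay on either side.

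Of the transporters and channels, *Folr1* (ENSMUSG00000001827, chr7:101858331-101870788, minus strand), the folate receptor that carries folate into the fluid, was at 635 CPM in the vehicle library and at 1094 and 903 CPM in the niacin libraries. *Kcnj13* (ENSMUSG00000079436, chr1:87386363-87394729, minus strand), the inward rectifier potassium channel Kir7.1, was at 575, 833 and 748 CPM. *Clic6* (ENSMUSG00000022949, chr16:92485736-92541243, plus strand), of the chloride intracellular channel family, ran the other way at 1364, 556 and 533 CPM. *Aqp1* (ENSMUSG00000004655, chr6:55336432-55348555, plus strand), the apical water channel, was the lowest at 91.1, 73.6 and 70.5 CPM, and its intervals in the 3 libraries overlapped.

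In order of the mean over 3 libraries, *Ttr* and *Enpp2* stood clear of the rest. *Clu* (2157 ± 300 CPM, SD, n = 3), *Igfbp2* (1467 ± 184 CPM) and *Kl* (1173 ± 279 CPM) followed. Next came *Folr1* (877 ± 231 CPM), *Clic6* (818 ± 473 CPM), *Kcnj13* (719 ± 132 CPM) and *Sostdc1* (552 ± 62.0 CPM). From *Igfbp2* to *Sostdc1*, neighbours had overlapping ranges of mean ± SD. Within each library, *Kcnj13* still lay above *Sostdc1*, and *Kl* above *Folr1*, though by little in niacin replicate 2 (909 and 903 CPM). The order of the other neighbours in this stretch changed between libraries. *Aqp1* (78.4 ± 11.1 CPM) lay below *Sostdc1* by more than the spread. Without shallower copies, the means moved by less than 1 SD for all 10 genes.

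Most choroid plexus cells held several of the 9 genes other than *Ttr*. When each cell was thinned to 500 UMIs, *Enpp2* was found in 98.2%, 98.8% and 96.2% of the choroid plexus cells of the vehicle library, niacin replicate 1 and niacin replicate 2. *Clu* was found in 57.3%, 68.1% and 59.0%, and *Aqp1* in 3.64%, 3.07% and 3.33%. The median cell showed 4 of the 9 genes in every library. In T cell-like cells, which should lack them, *Enpp2* was found in 0 of 169, 2 of 148 (1.35%) and 0 of 160 cells, and *Clic6* and *Folr1* in none, with exact binomial 95% upper bounds of at most 2.46%. No cell was left out by thinning to 500 UMIs, and the T cell-like cells had medians of 1681, 1269 and 1610 UMIs against 873, 5729 and 2662 UMIs in choroid plexus cells.

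*Clic6* and *Folr1* also differed between libraries in the share of cells that held them, *Folr1* less clearly. Among the 39 vehicle cells that were not copies, *Clic6* was found in 27 (69.2%, exact binomial 95% interval 52.4% to 83.0%) at 500 UMIs, against 22 of 127 (17.3%, 11.2% to 25.04%) in niacin replicate 1 and 20 of 128 (15.6%, 9.81% to 23.1%) in niacin replicate 2. In these cells the vehicle interval did not overlap those of the niacin libraries. *Folr1* was found in 7 of the 39 vehicle cells (17.9%, 7.54% to 33.5%) and in 58 of 127 (45.7%, 36.8% to 54.7%) and 53 of 128 (41.4%, 32.8% to 50.4%) niacin cells. For *Folr1* the vehicle interval overlapped that of niacin replicate 2 and not that of niacin replicate 1. With the copies included the shares lay closer together, at 31.8%, 23.3% and 21.0% for *Clic6* and 32.7%, 43.6% and 43.8% for *Folr1*. Without thinning, *Clic6* was found in 97.4%, 87.4% and 84.4% of the cells that were not copies. These intervals cover counting error only, and the cells of a pool are not replicates of the treatment.

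The vehicle copies differed from the other vehicle cells in *Clic6*, while their intervals for *Folr1* overlapped. *Clic6* was at 340 CPM (Poisson 95% interval 202 to 538 CPM) in the 71 copies and at 1568 CPM (1421 to 1726 CPM) in the other 39 cells. *Enpp2* was at 13441 CPM in the copies and 26223 CPM in the others, and *Kcnj13* at 889 and 512 CPM. *Folr1* was at 756 CPM (540 to 1030 CPM) in the copies and 610 CPM (520 to 712 CPM) in the others. Of these copies, 45 had their deeper counterpart in niacin replicate 1 and 26 in niacin replicate 2. The copies held 16.6% of the UMIs of vehicle choroid plexus cells, 2.64% of those of niacin replicate 1 and 8.27% of those of niacin replicate 2.

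Niacin was then compared with vehicle on the UMIs summed per library over choroid plexus cells, with edgeR's quasi-likelihood test and Benjamini-Hochberg adjustment over all 7952 genes tested. *Clic6* was lower and *Folr1* higher in the niacin libraries. With 1 vehicle library the spread between control pools is not known and is taken as that of the niacin libraries. The spread of each gene is moderated in edgeR by that of the other genes, so the p-values rest in part on these. An exact permutation test of 1 against 2 libraries cannot go below p = 0.333. At an adjusted p under 0.05 edgeR called 2.73% of all genes tested as higher and 3.36% as lower. Of the 10 genes, 1 was called higher and 1 lower. The median log2 fold change of the 10 genes was 0.41 against 0.01 for all genes tested.

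The log2 fold change of *Clic6* was -1.03 ± 0.24 (SE; adjusted p = 0.0019, edgeR) and -1.16 ± 0.26 without shallower copies (adjusted p = 0.00072). That of *Folr1* was 0.95 ± 0.27 (adjusted p = 0.013) and 1.07 ± 0.29 without the copies (adjusted p = 0.0073). *Clic6* was past the threshold in each fit of these cells that gave a p. *Folr1* was at 0.65 ± 0.38 (adjusted p = 0.35) when libraries were scaled by total UMIs alone, and that scaling shifted the median log2 fold change of all genes to -0.29. Without the copies and with DESeq2's size factors in edgeR, *Folr1* was at 1.04 ± 0.31 (adjusted p = 0.077), and with total UMIs as scaling it was at 0.69 ± 0.43 (adjusted p = 0.35).

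*Ttr* and *Kcnj13* passed the threshold without the shallower copies in the TMM-scaled fit, and under 2 other scalings they did not. In all choroid plexus cells *Ttr* had a log2 fold change of 0.92 ± 0.38 (adjusted p = 0.12, edgeR) and *Kcnj13* one of 0.76 ± 0.27 (adjusted p = 0.064). Without the copies they were at 1.21 ± 0.34 (adjusted p = 0.0098) and 0.99 ± 0.29 (adjusted p = 0.016), and the calls among the 10 genes rose to 3 higher and 1 lower, beside 5.10% and 4.14% of all genes. With DESeq2's size factors in edgeR, also without the copies, *Ttr* was at 1.18 ± 0.37 (adjusted p = 0.085) and *Kcnj13* at 0.96 ± 0.31 (adjusted p = 0.092), and with total UMIs as scaling at 0.83 ± 0.32 (adjusted p = 0.094) and 0.61 ± 0.43 (adjusted p = 0.43). With every shared barcode left out, *Ttr* was at 0.90 ± 0.23 (adjusted p = 0.0035) and *Kcnj13* at 0.77 ± 0.26 (adjusted p = 0.045). The 2% cut on *Ttr* bears on its own fold change.

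The remaining 6 genes passed in none of the fits of choroid plexus cells. *Igfbp2* was at 0.57 ± 0.26 (adjusted p = 0.17, edgeR), *Clu* at 0.43 ± 0.26 (adjusted p = 0.34) and *Sostdc1* at 0.40 ± 0.26 (adjusted p = 0.40). *Enpp2* was at -0.28 ± 0.29 (adjusted p = 0.63), *Kl* at -0.21 ± 0.25 (adjusted p = 0.68) and *Aqp1* at -0.04 ± 0.36 (adjusted p = 0.96). *Aqp1*, with few UMIs, had the widest error.

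**Figure D3:**
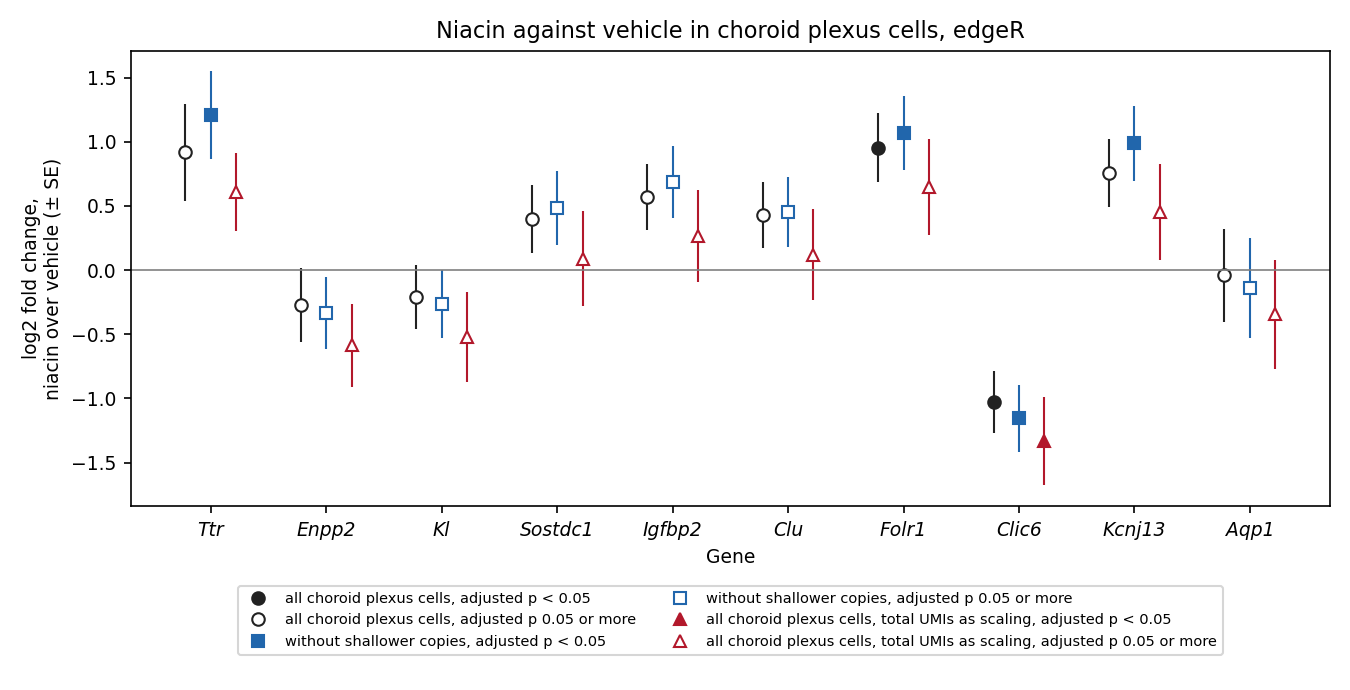
Log2 fold change of each gene in choroid plexus cells, niacin over vehicle, with its SE (edgeR), in all choroid plexus cells, without shallower copies, and with total UMIs as scaling. Filled symbols had an adjusted p under 0.05, and *Clic6*, near -1, is filled in all 3 series.

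RNA of markers of other cell types also differed between the libraries in the same cells. Summed over 7 microglia markers, the level in choroid plexus cells was 182 CPM in the vehicle library and 361 and 409 CPM in the niacin libraries, and over 6 erythrocyte markers it was 47.1, 589 and 421 CPM. Over 10 monocyte or macrophage markers it was 399, 37.7 and 16.3 CPM, and over 6 granulocyte markers 78.5, 198 and 425 CPM. One vehicle cell of 33767 UMIs, with *Ttr* at 3.84%, held 12.7% of the UMIs of the 39 vehicle cells that were not copies. It held 298 of their 322 *Cd74* UMIs and 75 of their 79 UMIs of *Plac8*, a gene of the monocyte or macrophage list. That list's vehicle level thus rested in part on 1 cell. The same cell held 18 of their 416 *Clic6* and 8 of their 162 *Folr1* UMIs. With the copies and the 5% of cells of highest doublet score left out, *Clic6* was at -1.27 ± 0.26 (adjusted p = 0.00025, edgeR) and *Folr1* at 0.93 ± 0.29 (adjusted p = 0.028), while *Ttr* was at 1.09 ± 0.50 (adjusted p = 0.16). The part of these markers in the results was not tested otherwise.

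Genes that work with the 10 were read from 11 lists of 108 genes, of which 82 could be tested in choroid plexus cells. Of these, 5 were called higher with niacin and none lower (edgeR, adjusted p under 0.05), against 2.73% and 3.36% of all genes tested. Without the copies 8 of 80 were called higher and none lower, against 5.10% and 4.14% of all genes. Unadjusted p-values under 0.05 were given to 1677 of the 7952 genes.

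Of 8 genes of thyroid hormone and retinol transport, 4 were tested and none was called. *Slco1c1*, a thyroxine transporter, was at 393 ± 70.4 CPM (SD, n = 3). *Rbp4*, *Lrp2* and *Dio3* had no UMI in choroid plexus cells. Receptors of lysophosphatidic acid, the product of the *Enpp2* enzyme, were scarce in these cells, with no UMI of *Lpar1*, *Lpar3* or *Lpar5*. The phosphatases of lysophosphatidic acid were low, *Plpp1* at 47.1 ± 13.5 CPM and *Plpp2* at 12.5 ± 3.75 CPM.

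Of the klotho list, the sheddase *Adam10* was at 27.5 ± 4.89 CPM and the receptor *Fgfr2* at 23.6 ± 8.80 CPM, and *Fgf23* and *Klb* had no UMI. Of the folate genes, the proton-coupled carrier *Slc46a1* was at 26.6 ± 1.91 CPM and *Mthfd1*, an enzyme of one-carbon metabolism, at 78.2 ± 24.0 CPM. None of either list was called. Of 17 genes of ion, water and bicarbonate transport, 15 were tested and none was called, with *Atp1b1*, a subunit of the sodium pump, at 840 ± 116 CPM and *Car2*, a carbonic anhydrase, at 733 ± 49.1 CPM. Without the copies 1 of the 15, *Steap1*, was called higher (1.12 ± 0.37, adjusted p = 0.037, edgeR).

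Among BMP and Wnt genes, 1 of 10 tested was called, the BMP target *Id3*, with a log2 fold change of 1.69 ± 0.34 (adjusted p = 5.7e-05, edgeR). Its level was 107 CPM in the vehicle library and 244 and 324 CPM in the niacin libraries. *Id1*, another BMP target, was at 0.73 ± 0.31 (adjusted p = 0.14). No gene of the insulin-like growth factor list (6 tested), of the transcription factors (8 tested) or of the junctions and keratins (9 tested) was called. Of these lists, *Igfbp7* was at 134 ± 32.2 CPM, *Igf2r* at 72.5 ± 30.1 CPM, *Otx2* at 330 ± 96.6 CPM, *Msx1* at 249 ± 49.0 CPM, *Krt18* at 295 ± 63.6 CPM and *Krt8* at 118 ± 28.3 CPM.

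Of 15 other secreted products of the plexus that were tested, 3 were called higher. They were *1500015O10Rik* (augurin; 1.04 ± 0.27, adjusted p = 0.0062), *Ptgds*, the prostaglandin D2 synthase of the fluid (1.08 ± 0.27, adjusted p = 0.0034), and *Trf*, transferrin (1.28 ± 0.32, adjusted p = 0.0036). Without the copies *Calml4*, a calmodulin-like gene, was called as well (1.00 ± 0.29, adjusted p = 0.014). *Cst3*, the protease inhibitor cystatin C, was at 2882 ± 118 CPM and did not pass (0.31 ± 0.26, adjusted p = 0.53). *Apoe*, in the clusterin list, was called higher (1.32 ± 0.28, adjusted p = 0.00019), while *Trem2*, a microglial receptor of lipoproteins, was at 1.44 ± 0.50 (adjusted p = 0.057) and was called at 2.62 ± 0.66 (adjusted p = 0.0033) without the copies. In all other cells *Apoe* was at 1707 ± 234 CPM and *Trem2* at 911 ± 403 CPM, and *Trf* at 349 ± 90.9 CPM. The summed level of microglia markers given above was also higher in the niacin libraries, and its part in these 3 values was not tested.

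The 10 genes whose pattern was most like the mean of the set were sought over 21 sums, 3 libraries of 7 cell classes, among 1838 other genes at 50 CPM or more in choroid plexus cells of every library. They were *Palmd*, *Atp2b3*, *Tmem98*, *Trpm3*, *Cldn2*, *Car14*, *Slco1c1*, *Cald1*, *Aifm3* and *Gpm6a*, all with Pearson's r of 0.998 on log2(CPM + 10). In 1 of the classes, called natural killer cell-like, 203 of 310 cells lay in a cluster with the T cell genes *Cd8b1* and *Cd8a* among its 10 leading genes. The sums share libraries, and the measure rests on the gap between choroid plexus cells and the rest. *Trpm3*, a cation channel, was at 313 ± 36.0 CPM in choroid plexus cells and at most 0.748 CPM in any other class and library. *Cldn2*, a claudin of leaky epithelia, was at 87.3 ± 6.05 CPM and had no UMI in the other classes compared.

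Outside choroid plexus cells the 10 genes were found at low levels, and *Ttr* had a UMI in 2481 of 5045 cells. *Ttr* was at 47.7 CPM in all other cells of the vehicle library (Poisson 95% interval 42.7 to 53.2 CPM), 304 CPM in niacin replicate 1 (292 to 317 CPM) and 213 CPM in niacin replicate 2 (204 to 223 CPM). The vehicle library was the lowest by a wide margin. *Enpp2* was at 7.83, 13.2 and 7.44 CPM, and the other 8 genes were at or below 3.82 CPM in every library. *Sostdc1* had no UMI outside in the vehicle library, which allows up to 0.435 CPM.

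The UMIs outside were then set against those within the choroid plexus cells of the same library. For each 100 *Ttr* UMIs within, there were 0.662 UMIs outside in the vehicle library (exact binomial 95% interval 0.592 to 0.738), 0.739 in niacin replicate 1 (0.709 to 0.771) and 0.909 in niacin replicate 2 (0.867 to 0.952). In these cells the ratio differed by less than 1.5 times between libraries, while the CPM outside differed by more than 6 times. Without shared barcodes the ratios were 1.00, 2.20 and 1.15 per 100, and with the cut on *Ttr* at 5% they were 3.81, 0.763 and 1.56, so the spread of the ratio depended on which cells were counted. *Ttr* UMIs of choroid plexus cells were 0.689%, 3.56% and 2.12% of the UMIs of all kept cells of the 3 libraries. These shares had the same order as the *Ttr* level outside. Without the shallower copies the ratios of *Ttr* were 0.889, 0.653 and 0.891 per 100.

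*Clu*, *Igfbp2*, *Folr1*, *Kl* and *Sostdc1* had the ratio of *Ttr* within their intervals in all 3 libraries. For *Clu* it was 0.773, 0.982 and 0.783 per 100, for *Igfbp2* 0.732, 0.476 and 0.893, for *Folr1* 0.990, 0.400 and 0.840 and for *Kl* 1.29, 0.536 and 1.19 in the vehicle library, niacin replicate 1 and niacin replicate 2. *Sostdc1* was at 0, 0.141 and 0.644. *Enpp2* lay below *Ttr* in both niacin libraries, at 0.471 (0.382 to 0.575) and 0.479 (0.368 to 0.613), and not in the vehicle library, at 0.704.

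*Kcnj13* stood above *Ttr* in all 3 libraries and *Clic6* in niacin replicate 2. *Kcnj13* was at 3.28 per 100 in the vehicle library (1.19 to 7.27), 2.42 in niacin replicate 1 (1.53 to 3.65) and 3.77 in niacin replicate 2 (2.44 to 5.57), which was 4.95, 3.27 and 4.15 times the ratio of *Ttr*. Its 55 UMIs outside lay in 55 different cells, 36 of them microglia-like. The gene lies within the span of *Gigyf2* (chr1:87326998-87450796) on the opposite strand, and *Gigyf2* was at 52.7 to 83.7 CPM in all other cells against 17.3 to 34.6 CPM in choroid plexus cells. A strand setting of the counting is not given in the sources used here, and the part of *Gigyf2* reads was not tested.

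*Aqp1* was at 6.90 (0.797 to 27.3), 5.95 (1.88 to 14.5) and 27.7 (15.5 to 47.3) per 100. The vehicle value rested on 2 UMIs, and without the copies it was 0 (0 to 14.6). Without shared barcodes *Aqp1* had no UMI outside in the vehicle library or niacin replicate 2. Of its 25 UMIs outside, 15 came from 1 cell of niacin replicate 2 that also held 276 *Car2* and 263 *Hba-a1* UMIs, genes of red blood cells and their precursors, and 6 came from erythrocyte-like cells. *Aqp1* is also the water channel of red blood cells. *Clic6* was at 0.922, 0.631 and 3.25 per 100, and 14 of its 16 UMIs outside in niacin replicate 2 came from 1 cell of 13790 UMIs with *Ttr* at 1.40%, just under the cut. With the cut at 1% this cell joined the choroid plexus cells and *Clic6* was at 0.395 per 100 in that library.

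**Figure D4:**
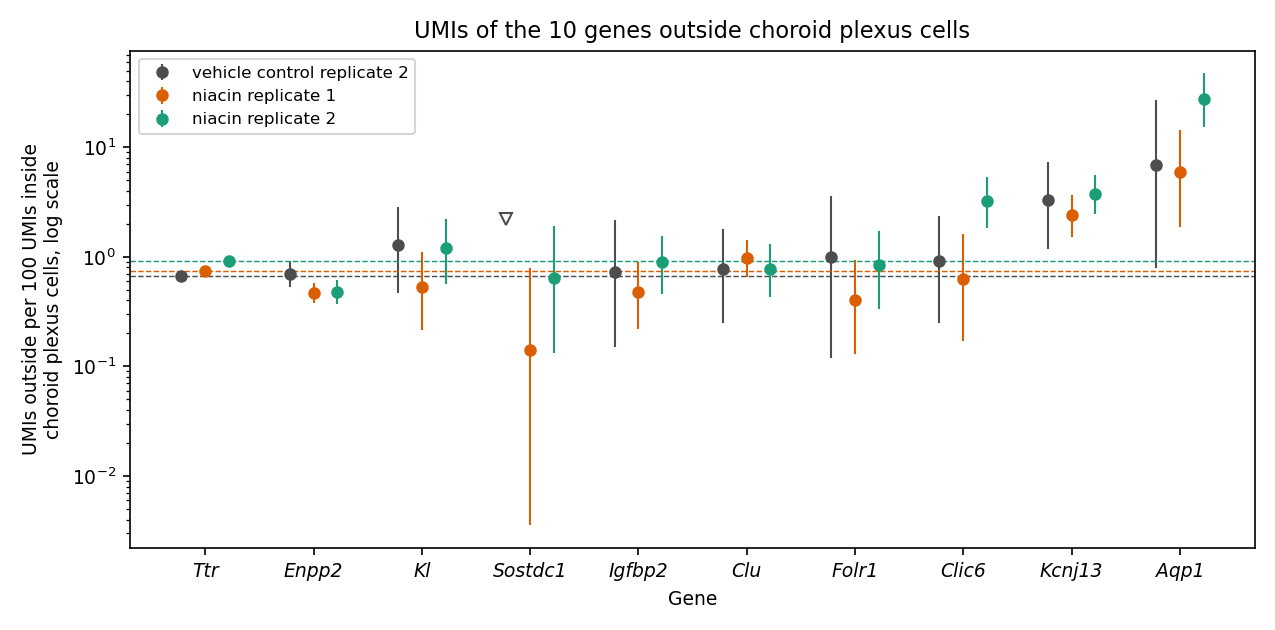
UMIs of each gene in all other cells for each 100 UMIs of the gene in choroid plexus cells (log scale), by library, with exact binomial 95% intervals, dashed lines at the ratio of *Ttr*, and an open triangle at the upper limit where no UMI was found outside. *Kcnj13* lies above the lines in every library, with intervals clear of them. *Aqp1* also lies above them, with intervals clear of the line of the same library. Its vehicle interval reaches below the line of niacin replicate 2. The vehicle value of *Aqp1* rests on 2 UMIs and is 0 without shallower copies.

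*Ttr* outside choroid plexus cells did not grow in proportion to the depth of the cell. In the vehicle library the cells of 500 to under 1000 UMIs held 0.139 *Ttr* UMIs each and the cells of 5000 UMIs or more 0.358, a rise of 2.58 times over a rise of 12.8 times in median depth. In niacin replicate 1 the values were 0.804 and 1.87 UMIs per cell, 2.33 times over 11.6 times, and in niacin replicate 2 they were 0.418 and 1.47, 3.51 times over 11.7 times. The shallow cells thus had the higher CPM. Without shallower copies the rises were 2.39, 2.29 and 3.14 times. In choroid plexus cells *Ttr* rose by 6.92, 17.5 and 10.6 times between the same bins, over 13.5, 14.8 and 12.3 times in depth.

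**Figure D5:**
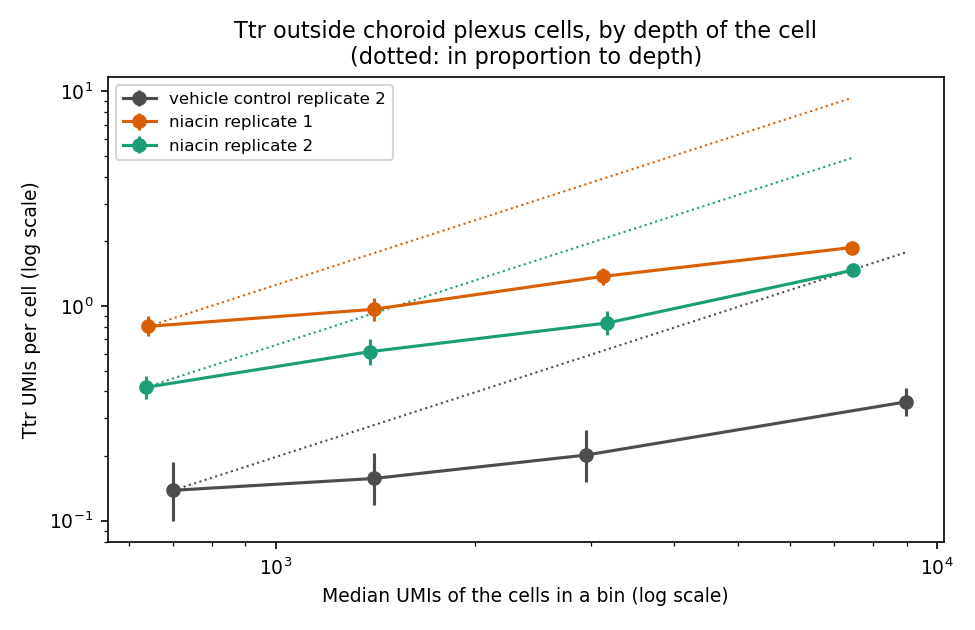
*Ttr* UMIs per cell against the median UMIs of the cells (both log scales) for cells outside the choroid plexus in 4 bins of depth, by library, with exact Poisson 95% intervals and dotted lines for growth in proportion to depth. The niacin libraries lie above the vehicle library at each depth, and all 3 solid lines rise less steeply than the dotted ones.

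*Ttr* had UMIs in every named class of cells outside the choroid plexus. The mean over 3 libraries was 210 ± 167 CPM (SD, n = 3) in T cell-like cells, 206 ± 140 CPM in microglia-like, 184 ± 130 CPM in B cell-like and 160 ± 72.5 CPM in granulocyte-like cells. In monocyte- or macrophage-like cells it was 115 ± 84.0 CPM. It was 192 ± 137 CPM in mast cell- or basophil-like, 137 ± 87.6 CPM in plasma cell-like and 51.2 ± 33.0 CPM in erythrocyte-like cells, each with under 10 cells in 1 library or more. Neighbours in the order of these means had overlapping ranges of mean ± SD, and the classes were not compared within each library. The natural killer cell-like class was not compared, since most of its cells lay in the cluster with T cell genes. In each of the first 5 classes the vehicle library was the lowest and niacin replicate 1 the highest. In T cell-like cells, for example, *Ttr* was at 48.3, 382 and 198 CPM.

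In the test of all other cells, 7 of the 10 genes passed the filter on low counts and 3 were called higher with niacin, against 18.0% of the 12837 genes tested. The log2 fold change of *Ttr* was 2.54 ± 0.19 (adjusted p = 8.6e-09, edgeR), that of *Clu* 1.97 ± 0.75 (adjusted p = 0.045) and that of *Kcnj13* 1.92 ± 0.62 (adjusted p = 0.020). Without the copies *Ttr* was at 2.46 ± 0.19 (adjusted p = 1.7e-09), *Kcnj13* at 1.93 ± 0.65 (adjusted p = 0.022) and *Clu* at 1.83 ± 0.77 (adjusted p = 0.065). *Aqp1* then passed at 6.23 ± 2.20 (adjusted p = 0.029), with 0, 3 and 16 UMIs in the 3 libraries, most of them from the 1 cell described above. With the cut on *Ttr* at 5%, low-*Ttr* choroid plexus cells counted as other cells, *Ttr* in other cells was at 265, 314 and 361 CPM, and its log2 fold change was 0.46 ± 0.14 (adjusted p = 0.020). In microglia-like cells 4 of the 10 genes could be tested and *Ttr* alone was called, at 2.42 ± 0.19 (adjusted p = 1.4e-09), against 10.1% of the 11177 genes tested.

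*Ttr* itself drew the line between the 2 kinds of cells, so the difference of its niacin effect between them is given as a description that depends on where the line lies. The log2 fold change in choroid plexus cells minus that in all other cells was fitted as an interaction, with the library as a block. For *Ttr* it was -1.65 ± 0.32 (SE, edgeR), with *Ttr* higher with niacin by more outside than within at the 2% cut. No p of *Ttr* is given for this difference, since *Ttr* sorted the cells to its 2 sides. None of the other 9 genes was called, beside 0.807% of the 13143 genes tested that were called lower. *Kl*, *Folr1* and *Sostdc1* passed the filter on low counts here only through choroid plexus cells. Without the copies the difference of *Ttr* was -1.27 ± 0.21, and *Aqp1* was called lower, against 0.901% of all genes. With all shared barcodes left out the difference of *Ttr* was -1.27 ± 0.38, and with the cut at 5% of UMIs it turned to 0.29 ± 0.38.

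The share of cells that were choroid plexus cells was 7.27% in the vehicle library (110 of 1514; exact binomial 95% interval 6.01% to 8.69%), 9.0% in niacin replicate 1 (163 of 1811; 7.72% to 10.4%) and 9.53% in niacin replicate 2 (210 of 2203; 8.34% to 10.8%). Without shallower copies it was 2.95% (2.10% to 4.0%), 8.94% (7.51% to 10.5%) and 8.00% (6.72% to 9.44%). The dissection, the Percoll step and the sort can set these shares, and pools of 1 and 2 libraries cannot tell them from the treatment.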

How the data were processed

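Cells were single live cells of tumor-bearing brain sections, 1 pooled library of vehicle control and 2 of niacin. Deposited values are raw UMI counts, one matrix a library, which the authors made with Cell Ranger 3.1 (STAR) on mm10 per the submitters' processing notes, unnormalized. Pools are the replicates. The p-values rest on the spread between the 2 niacin libraries and on edgeR's moderation of that spread across genes. No spread was seen for the control, which is assumed to vary like the niacin libraries.

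Barcodes with 200 genes or more and at most 20% mitochondrial UMIs were kept (5528 of 6947). Cells were clustered in Seurat 5.3.0 and classes named "-like" from marker lists. Scrublet, in scanpy 1.11.5, marked 26 cells (0.470%), too few to be a working call, so doublets were kept and the 5% of highest score left out as an alternative. UMIs were summed per library and tested in edgeR 4.0.16 (TMM, low-count filter, quasi-likelihood test, Benjamini-Hochberg adjustment, R 4.3.3). On simulated counts the test of choroid plexus cells recovered 81.8% of 4-fold and 23.3% of 2-fold changes. That of the difference between cells recovered 29.0% and 5.38%. A gene that was not called may therefore still differ by this much. In the test of all other cells 7.73% of the simulated calls were false. DESeq2 1.42.0, other scalings, cuts and filters were alternatives. Exact Poisson and binomial intervals (95%) cover counting error only. Where no UMI was found, a level in CPM is marked at that of 3 UMIs, and ratios and shares have their exact binomial upper limit.

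The 10 genes and the lists were chosen with earlier results of these data known. Named besides the 10 were, in each list, genes called in choroid plexus cells and the 2 of highest level, and the 10 genes most like the set, except that some are not reported here. Genes without UMIs, and those called only without shallower copies, were named after their values were seen, as were the leave-out of copies and the fits combined with it. Gene positions are from GENCODE vM21 and promoters from RefSeq, which matched 4 of the 10 genes.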

Additional observations from a re-analysis of the deposited data

Results flagged for a closer look

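The log2 fold change of *Ttr* with niacin in choroid plexus cells minus that in all other cells was -1.65 ± 0.32 (SE, edgeR). *Ttr* itself drew the line between these cells, at 2% of UMIs. With the line at 5% the value turned to 0.29 ± 0.38, and without shared barcodes it was at -1.27 ± 0.38. *Ttr* went from 156086 CPM in the vehicle library to 263958 and 215364 CPM in the niacin libraries within choroid plexus cells, and from 47.7 CPM to 304 and 213 CPM outside them. Both niacin libraries lay above the vehicle library in both kinds of cells. *Ttr* UMIs of choroid plexus cells made up 0.689% of the UMIs of all kept cells of the vehicle library. In the niacin libraries they made up 3.56% and 2.12%. The part of this amount in the level outside was not tested.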

How the results depend on the processing

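The lower *Clic6* with niacin in choroid plexus cells kept its direction and its side of the threshold in every alternative with a test. The higher *Ttr* in all other cells did so too, but *Ttr* itself chose these cells and the size of its difference depended on the cut. With the cut at 2%, *Ttr* outside was at 47.7 CPM in the vehicle library and at 304 and 213 CPM in the niacin libraries. With the cut at 5% it was at 265 CPM in the vehicle library and at 314 and 361 CPM in the niacin libraries. Without niacin replicate 1 or 2 no test was possible, and the log2 values of *Clic6* were -1.12 and -0.96, those of *Folr1* 0.73 and 1.11, those of *Ttr* in other cells 2.26 and 2.77 and those of its difference between cells -1.36 and -1.71. No paired analysis was possible because the groups share fewer than 2 replicate numbers.

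Counts of genes called moved by over 1.5 times as follows. DESeq2 gave an adjusted p to fewer genes, 861 against the 7952 tested in edgeR for choroid plexus cells, 11343 against 12837 for other cells and 3593 against 11177 for microglia-like cells. For the other settings the cause was not tested. In choroid plexus cells the 484 calls became 94 with DESeq2, 260 without the highest doublet scores, 258 without shared barcodes and, without shallower copies, 142 with DESeq2 and 230 with its size factors. The split of 217 higher to 267 lower became 23 to 422 with total UMIs as scaling. In other cells 5144 became 1543 with DESeq2, and in microglia-like cells 2194 became 340 with DESeq2 and 1359 without shared barcodes. For the difference between cells 203 became 126 with *Ttr* at 5%, 306 with *Ttr* left out and 35 without shared barcodes.

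Log2 values changed sign with *Ttr* at 5%, where low-*Ttr* choroid plexus cells count as other cells. In other cells *Enpp2* was then at -1.77, *Clic6* at -0.70, *Igfbp2* at -1.27 and *Clu* at -0.28, and the difference between cells was 0.29 for *Ttr*, 1.33 for *Enpp2*, 1.14 for *Kl*, 1.58 for *Folr1*, 0.74 for *Sostdc1*, 1.73 for *Igfbp2* and 0.56 for *Clu*. Calls (edgeR, adjusted p under 0.05) changed side as well. In other cells at 5%, 1 of the 10 genes was called higher and 2 lower, beside 2180 and 2721 of 12891 genes. For the difference between cells 2 were called higher and none lower, beside 86 and 40 of 13122 genes. At the 2% cut none was called lower in other cells and none higher for the difference. With *Ttr* at 1% the difference for *Kl* was 0.23. *Enpp2* in other cells was at -0.25 with all barcodes, and in choroid plexus cells *Clu* was at -0.023 without shared barcodes and *Aqp1* at 0.059 with no filter on low counts.

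The summed level of the 9 genes other than *Ttr* was 26646 ± 5374 CPM and 33747 CPM over UMIs other than *Ttr*. The vehicle share of choroid plexus cells was 5.46% with all barcodes, 3.78% with 500 genes or more, 2.66% without shared barcodes, 2.95% without copies and 2.99% without copies and highest doublet scores. The niacin shares without shared barcodes were 5.27% and 7.21%, and that of niacin replicate 2 without copies was 8.00%. The mean share of cells with a UMI over the 9 genes was 42.1% at 500 UMIs, 57.7% at 1000, 74.0% at 2000 and 71.0% without thinning.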
